A study of Mus musculus with 2 samples.

Results

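Among CD8+ T cells sorted from B16 tumors, a small set of shallow droplets carried a large share of Gm26917, a noncoding RNA annotated beside an rRNA-related locus. A cell was taken when Gm26917 made up at least 0.3% of its UMIs, where a UMI (unique molecular identifier) marks 1 captured RNA molecule. Only cells with under 7.5% mitochondrial UMIs and over 500 and under 50000 UMIs were considered, 4745 in all. By this rule 352 of 4745 cells (7.42%, exact binomial 95% interval 6.69 to 8.20) were Gm26917-high, 217 of 2456 (8.84%, 7.74 to 10.0) in the lean library and 135 of 2289 (5.90%, 4.97 to 6.94) in the obese library. The other 2239 lean and 2153 obese cells are called the rest, and 1 obese cell with over 50% hemoglobin UMIs, counted among the 4745 and 2289, was left out of both.

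The libraries were made from male C57Bl/6J mice aged 16 weeks that carried transplanted B16 F0 melanoma, 1 library from lean mice kept on normal chow (NC) and 1 from obese mice kept on western diet (WD). CD8+ tumor-infiltrating lymphocytes (TIL) were sorted on CD8 staining and captured as Chromium 3′ libraries. How many mice went into each library is not given in the sources used here. Because each diet had 1 library, no test was possible, and every interval below is a 95% interval that covers counting error only. The rule used the UMIs of the same cells, so each comparison of the Gm26917-high cells with the rest is a description. The libraries shared 4 cell barcodes, and 0 of these were among the Gm26917-high cells.

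Most messenger RNA of a cell is in its cytoplasm, while some noncoding RNAs stay in the nucleus with chromatin, speckles or the nucleolus. Malat1 and Neat1 are long noncoding RNAs of nuclear speckles and paraspeckles, and Rmrp is the RNA component of RNase MRP, an enzyme of the nucleolus that takes part in the processing of ribosomal RNA. Gm42418 and AY036118 are annotated over 18S-like ribosomal sequence, and Lars2, the gene of mitochondrial leucyl-tRNA synthetase, was placed in the same list. The share of mitochondrial RNA is widely used as a measure of cell quality in droplet data.

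Gm26917 lies on chromosome 17 from 39843013 to 39846341 on the plus strand of GRCm38, a noncoding gene of 3329 bases with a GC content of 69.1%. It ends 12 bases before Rn18s-rs5, an 18S ribosomal sequence in RefSeq that runs from 39846354 to 39848202. Gm42418, from 39846958 to 39848788 on the same strand, shares 1245 bases with Rn18s-rs5. All 923 bases of AY036118 lie within Gm42418 on the opposite strand, so that only strand separates their UMIs. Rmrp lies on chromosome 4 from 43492783 to 43493063 on the minus strand, and its transcript is 281 bases long with a GC content of 63.7%. The longest run of adenines was 4 in Gm26917 and 3 in Rmrp. The end of Gm26917 that faces the ribosomal sequence, 120 bases at chr17:39846222-39846341 on the plus strand, is shown because this RNA chose the cells, and the whole of Rmrp because it led the ranking of genes given below. Both are from the GENCODE transcripts of GRCm38, 5′ to 3′, with no base marked.
Gm26917, last 120 bases: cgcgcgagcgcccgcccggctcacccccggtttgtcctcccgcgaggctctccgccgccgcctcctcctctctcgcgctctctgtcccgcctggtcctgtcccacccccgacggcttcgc
Rmrp: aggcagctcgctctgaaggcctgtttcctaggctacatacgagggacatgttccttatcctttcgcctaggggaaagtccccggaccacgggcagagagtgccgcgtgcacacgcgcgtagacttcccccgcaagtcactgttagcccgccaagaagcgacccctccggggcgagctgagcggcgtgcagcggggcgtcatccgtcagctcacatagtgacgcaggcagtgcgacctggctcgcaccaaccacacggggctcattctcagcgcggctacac

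The Gm26917-high cells were few in UMIs but held most of the Gm26917. They contributed 672154 of the lean and 641825 of the obese UMIs, 2.42% and 2.24% of the respective libraries, and 66.8% and 67.9% of all Gm26917 UMIs. A lean cell held 2 to 524 Gm26917 UMIs (median 28) and an obese cell 4 to 363 (median 63). As a share of the cell's UMIs, the median was 1.11% in lean and 1.46% in obese cells, with the highest cells at 13.2% and 11.9%. The cells nearest the threshold stood at 0.303% inside and 0.293% outside it in the lean library, and at 0.302% and 0.282% in the obese library. Hence no gap separated the sets. The choice rested on very few molecules in 4 lean cells and 1 obese cell, which had under 5 Gm26917 UMIs. In the rest, 794 lean and 645 obese cells had none.

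Cells with a high share of Gm26917 were shallow. The median Gm26917-high cell had 2332 UMIs in the lean library (572 to 30563) and 2999 in the obese library (561 to 36615), against 8498 and 9446 in the rest. The cells made up 33.3% of the lean and 7.35% of the obese cells with 500 to 1000 UMIs. They made up 80.6% of the lean and 61.4% of the obese cells with 1000 to 2000 UMIs, and 38.9% and 36.1% of those with 2000 to 4000 UMIs. Between 8000 and 16000 UMIs they were 0.43% of lean and 2.1% of obese cells. The plot of share against depth shows most of them between 1000 and 4000 UMIs, with a tail of deeper cells in the obese library. Those deeper cells matter for any sum over the set, because 21 obese cells with at least 8000 UMIs held 45.5% of the set's UMIs while 5 such lean cells held 12.6%.

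**Figure D1:**
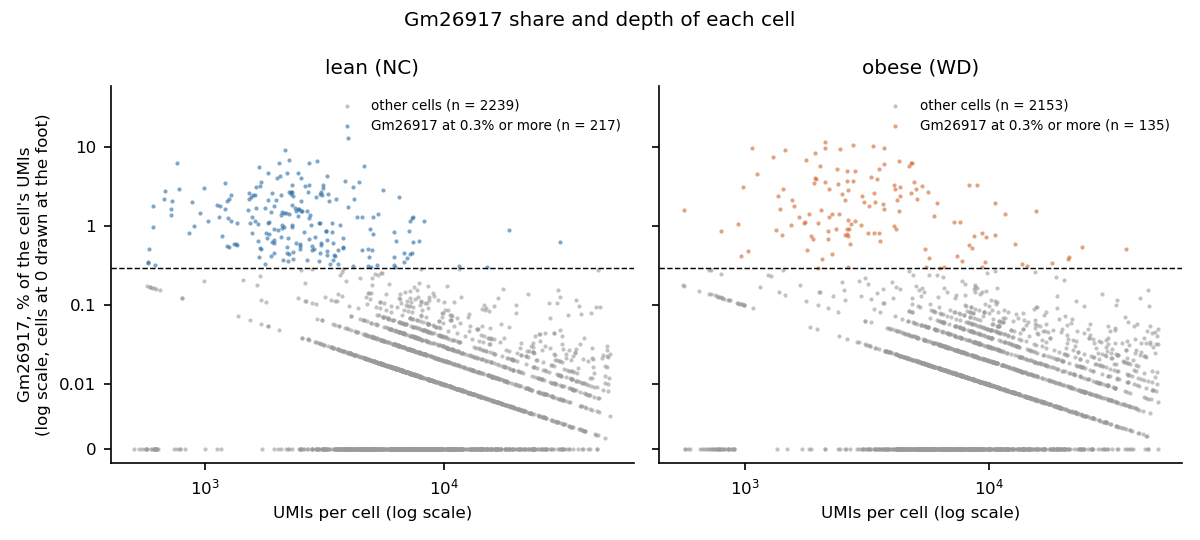
Each point is 1 cell, placed by its UMIs (log scale, x axis) and by Gm26917 as a percentage of its UMIs (y axis, log scale with cells at 0 drawn at the foot), for the lean and the obese library; the dashed line is the 0.3% threshold. Coloured points are the 217 lean and 135 obese Gm26917-high cells, most of them below 8000 UMIs, and grey points are the rest.

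Shallow did not mean few genes for the number of UMIs. The median Gm26917-high cell showed 1169 genes in the lean and 1361 in the obese library, against 2183 and 2365 in the rest. When cells were thinned to 1000 UMIs, which leaves out 18 lean and 5 obese Gm26917-high cells and 36 and 63 cells of the rest that had fewer, these cells had more genes than the rest, with medians of 622 against 538 in the lean and 604.5 against 547 in the obese library. Mitochondrial genes took a median of 3.50% and 4.59% of their UMIs (2.05% and 2.58% in the rest). Ribosomal protein genes took 7.84% and 9.70%, far under the 30.9% and 30.4% of the rest. Mitochondrial UMIs of at least 5% were found in 67 lean and 53 obese Gm26917-high cells, against 25 and 45 cells in the much larger rest.

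Gm42418, AY036118 and Lars2, grouped as rRNA-related entries, were high in both libraries. UMIs were summed over cells and given as CPM, counts per 1000000 UMIs of those cells. Gm42418 stood at 115240 CPM against 14547 in the lean library, a log2 ratio of 2.986 (2.975 to 2.997), and at 74411 against 10970 in the obese library, 2.76 (2.75 to 2.78). In single cells it reached 73.0% of lean and 71.0% of obese UMIs. Lars2 stood at 11599 against 803 CPM (3.85, 3.82 to 3.89) and at 6059 against 501 (3.597, 3.545 to 3.648). AY036118 was less separated, with log2 ratios of 1.96 and 1.72. All 3 entries were thus above 2-fold in both libraries, where 42.0% of 8512 genes measured in the lean library and 31.8% of 8249 in the obese library were at least 2-fold higher, 12.7% and 7.58% were at least 2-fold lower, and the median over all genes was 0.75 and 0.51. Further list medians are to be read against these 2 values, with a gene measured when it reached 10 CPM in either set of cells.

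Rmrp had the highest ratio of the 2921 genes ranked, Gm26917 not among them, those with at least 20 UMIs in each set of cells and 50 CPM in one set of both libraries. It gave 191 UMIs in 100 of 217 lean cells, 284 CPM against 7.48 in the rest, a log2 ratio of 5.25 (4.96 to 5.54). In the obese library it gave 186 UMIs in 83 of 135 cells, 290 CPM against 6.67 and a log2 ratio of 5.44 (5.14 to 5.74). No single cell carried this, since the highest cell held 4.19% of the lean and 5.91% of the obese Rmrp UMIs. After thinning to 1000 UMIs, Rmrp was seen in 26.6% (20.6 to 33.3) of lean and 29.2% (21.6 to 37.8) of obese Gm26917-high cells, against 0.953% and 0.670% of the rest. Unthinned shares were 46.1% and 61.5%, at median depths of 2332 and 2999 UMIs, against 7.77% and 7.66% at 8498 and 9446 UMIs. The excess also held between cells of like depth. With 2000 to 4000 UMIs, Rmrp was at 346 CPM against 21.2 in the lean and at 435 against 19.4 in the obese library. With the rest weighted to the depths of the Gm26917-high cells, the ratios were smaller, 3.77 in the lean and 4.32 in the obese library.

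Malat1, by contrast, differed from the rest much less once depth was matched. Over all cells it stood at 34145 CPM against 12938 in the lean library (log2 ratio 1.40, 1.38 to 1.42) and at 26032 against 13963 in the obese library (0.90, 0.88 to 0.92). In the rest, however, Malat1 itself varied with depth, from 62903 CPM (lean) and 61476 (obese) at 1000 to 2000 UMIs down to 7564 and 7305 from 16000 UMIs. The shallowest cells of the rest, with 500 to 1000 UMIs, had 19406 and 9831 CPM. Compared at 2000 to 4000 UMIs, the Gm26917-high cells had 42113 against 38520 CPM in the lean library and 40268 against 47443 in the obese library, so that the direction differed between libraries. When the rest was weighted to the depths of the Gm26917-high cells, the log2 ratio was 0.038 in the lean and −0.113 in the obese library, with a mean of −0.037. Among cells of 2000 to 8000 UMIs it was 0.48 in the lean and 0.055 in the obese library. Malat1 therefore did not separate the set in both libraries at like depth, and the cells are named here by Gm26917. The plot of levels by depth shows Rmrp apart from the rest between 2000 and 8000 UMIs and the Malat1 lines running together.

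**Figure D2:**
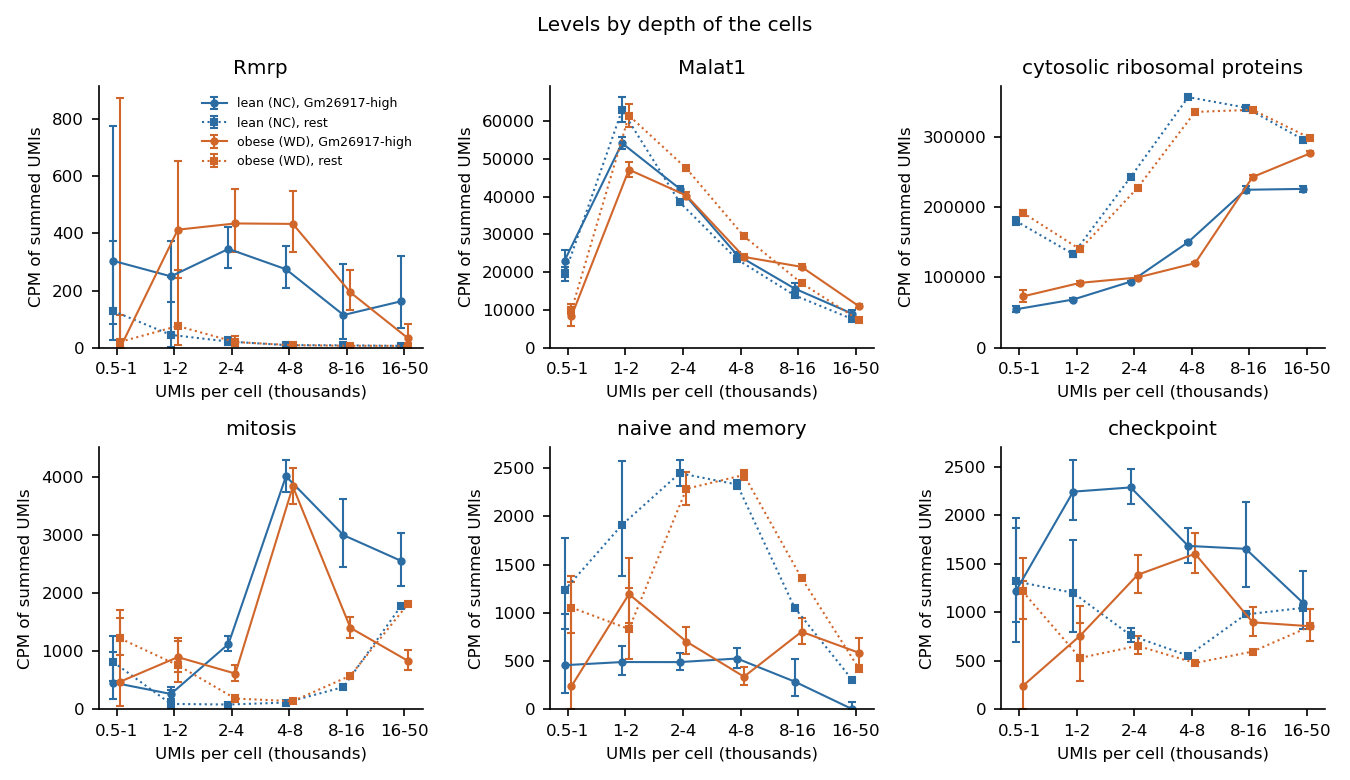
Summed level in CPM (y axis, linear) of Rmrp, Malat1, ribosomal protein genes, mitosis genes, naive and memory genes and checkpoint genes in cells grouped by UMIs per cell (x axis, in units of 1000 UMIs), for Gm26917-high cells (solid) and the rest (dotted) of the lean (blue) and obese (orange) library; bars are exact Poisson 95% intervals. Rmrp, mitosis and checkpoint genes were above the rest in Gm26917-high cells of 2000 to 8000 UMIs and ribosomal protein and naive genes below it, while Malat1 was lower in deeper cells of both sets from 1000 UMIs on.

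Neat1 stood at 440 against 59.1 CPM in the lean library (2.90, 2.71 to 3.08) and at 442 against 69.2 in the obese library (2.68, 2.49 to 2.86), and it kept log2 ratios of 1.89 and 2.28 among cells of 2000 to 8000 UMIs. In the rest Neat1 also varied with depth, from 534 (lean) and 378 CPM (obese) at 1000 to 2000 UMIs to 36.4 and 39.7 from 16000 UMIs. At 1000 to 2000 UMIs the Gm26917-high cells had 738 and 390 CPM, near the rest in the obese library, where 17 and 10 UMIs were counted. Kcnq1ot1, a long noncoding RNA that silences imprinted neighbours, had log2 ratios of 1.38 and 0.68 over all cells. Of 12 listed nuclear long noncoding RNAs, 5 reached 10 CPM in both sets of cells of either library. Another 2 in the lean and 1 in the obese library did so only in the Gm26917-high cells, and thus had to be higher there. All of them were higher, with medians of 1.66 and 1.22, which the filter partly sets. Of all genes measured, 5923 of 8512 and 5515 of 8249 were higher, and the 83 and 73 measured genes annotated as lincRNA, some of them in that list, had medians of 1.40 and 0.96. Among 20 genes of nuclear speckles and splicing, 19 were higher in either library, 10 (lean) and 7 (obese) at least 2-fold, with medians of 1.01 and 0.56 that lay near those of all genes. Srrm2, a scaffold protein of speckles, had ratios of 1.65 and 1.37, and the RNA helicase gene Ddx17 1.90 and 1.49. Host genes of small nucleolar RNAs stood lower than the median gene, at 0.09 and −0.16 over 14 genes.

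Within the set, the mixture changed with the Gm26917 share. In cells with 0.3 to 1% Gm26917, ribosomal protein genes summed to 154450 CPM in the lean and 219260 in the obese library, and in those with at least 3% they summed to 69785 and 104410. Over the classes of 0.3 to 1%, 1 to 3% and at least 3%, Rmrp stood at 196, 405 and 371 CPM in the lean library and at 108, 395 and 645 in the obese library, and Lars2 at 6481, 17309 and 20623 and at 2855, 7961 and 12258. Cells just under the threshold, with 0.1 to 0.3%, already had more Rmrp, at 37.5 and 28.4 CPM, than the 6.49 and 5.13 CPM of cells without Gm26917. These RNAs share libraries and total UMIs, so the order is descriptive.

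Beside Rmrp and Lars2, the top of the ranking held Ttn, Ccnb1ip1, Wdcp, Kmt2d, Mlxip, Neb, Hist1h2ac and Lrba. Ttn and Neb encode the giant muscle proteins titin and nebulin. Ttn stood at 132 against 4.53 CPM in the lean and at 73.2 against 4.10 in the obese library (4.87 and 4.16), from 27 and 17 cells. Kmt2d, a histone H3 lysine methyltransferase, reached 3.29 and 2.75. The Wdcp values came mostly from single cells, since 1 cell held 89 of its 99 UMIs in the lean library and 1 cell 60 of 66 in the obese library, without which its level was 14.98 and 9.47 CPM.

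Ccnb1ip1, annotated as an E3 ligase that acts on cyclin B, needs a caution of another kind. It stood at 141 against 11.0 CPM in the lean library (3.68, 3.33 to 4.02) and at 187 against 8.23 in the obese library (4.50, 4.17 to 4.83). Its exon of 233 bases on chromosome 14, from 50807500 to 50807732, lies wholly within Rpph1 on the same minus strand, and Rpph1, the RNA component of RNase P and a relative of Rmrp, was not among the features counted. UMIs of Rpph1 and of this exon of Ccnb1ip1 cannot be told apart here.

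Several of these leading genes are long, and length ordered the whole transcriptome. When genes were split into quartiles of exonic length, the median log2 ratio was −0.50, 0.54, 1.01 and 1.43 from the shortest to the longest in the lean library and −0.37, 0.30, 0.73 and 1.08 in the obese library. The share of genes at least 2-fold higher went from 15.1% to 69.6% and from 11.9% to 54.1%. The order was the same among cells of 2000 to 8000 UMIs, with −0.27, 0.66, 1.08 and 1.31 in the lean library and −0.27, 0.54, 0.996 and 1.23 in the obese library. Over all cells, quartiles of gene span, introns included, gave a like order, from −0.13 to 1.36 in the lean and from −0.10 to 1.01 in the obese library. Among genes of shorter exonic length, those of shorter and longer span had medians of −0.11 and 0.41 (lean) and −0.13 and 0.19 (obese). Among those of longer exonic length they had 0.94 and 1.31 and 0.64 and 0.98. Ttn has 116820 exonic bases, Neb 26582 and Kmt2d 19931, whereas Uqcrb, one of the lowest genes, has 876. Not every named gene followed this order. Of the leading genes, Rmrp has 281 exonic bases, Ccnb1ip1 1883 and Hist1h2ac 2482, while Mrps14 at the low end has 3258.

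**Figure D3:**
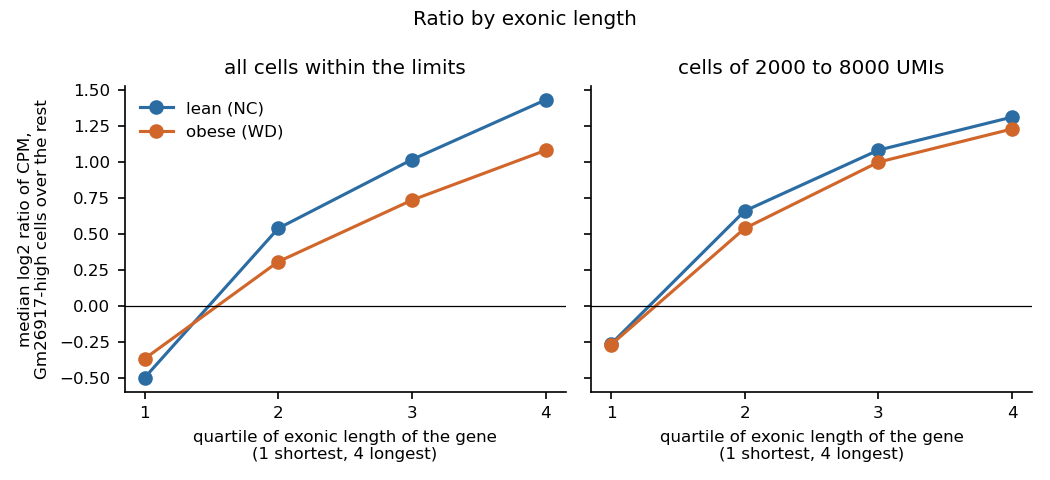
Median log2 ratio of CPM, Gm26917-high cells over the rest (y axis), of genes in quartiles of exonic length (x axis, 1 shortest to 4 longest), for the lean (blue) and obese (orange) library, over all cells within the limits (left) and over cells of 2000 to 8000 UMIs (right). Every line climbs from below 0 in the shortest quartile to above 1 in the longest.

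At the low end of the ranking, Mrps14 and Mrps21, which encode mitochondrial ribosomal proteins, had log2 ratios of −2.59 and −2.80 in the lean library and −1.81 and −1.36 in the obese library. Lsm5, part of a ring that binds U6 small nuclear RNA, had −2.36 and −1.94. The respiratory chain genes Uqcrb (−2.73 and −1.36), Cox5a (−2.43 and −1.46), Cox7a2 (−2.33 and −1.52) and Atp5md (−2.51 and −1.35) belonged to the same end. So did the chemokine gene Ccl4 (−2.52 and −1.43), Plac8 (−2.61 and −1.64) and the transcript AW112010 (−2.14 and −1.83).

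As groups, mitochondrially encoded and nuclear-encoded respiratory genes went opposite ways. All 13 messages of the mitochondrial genome were higher in both libraries, with medians of 1.04 and 0.80, and together they made up 39040 against 20203 CPM in the lean and 44268 against 26185 in the obese library. The most abundant, mt-Atp6, stood at 7994 and 10774 CPM. Below 2000 UMIs the excess of their sum varied. At 500 to 1000 UMIs it was 21797 against 24726 CPM in the lean and 36914 against 19703 in the obese library. At 1000 to 2000 UMIs it was 36973 against 30606 and 42182 against 40556. Of 81 nuclear oxidative phosphorylation genes, 78 (lean) and 80 (obese) were lower, 59 and 44 at least 2-fold, with medians of −1.61 and −1.02. The mitochondrial limit on cells cut the first group from above, since mitochondrially encoded UMIs were part of it.

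Messages of cytosolic ribosomal proteins were the other large group that was low. Of 81 measured, 79 were lower in the lean library and 77 in the obese library, 60 and 27 at least 2-fold, with medians of −1.47 and −0.90. In sum they fell short of the rest at 123720 against 319550 CPM (lean) and 175800 against 315030 (obese). Rps15 was an exception, with 1.07 and 0.49. Among 20 abundant cytosolic messages 17 were lower in either library, with medians of −0.97 and −0.68. Tmsb4x, which encodes an actin-binding peptide, had −1.64 and −1.22, Actb 0.07 and 0.02, and the elongation factor gene Eef2 1.61 and 1.08. Counts cannot tell a loss of these messages from a gain of others, because all values are shares of the same UMIs.

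At least 1 UMI of Cd3d, Cd3e, Cd3g, Trac, Cd8a or Cd8b1 was found in 96.8% of lean and 97.0% of obese Gm26917-high cells. At 1000 UMIs per cell the shares were 92.97% (88.5 to 96.1) and 87.7% (80.8 to 92.8), under the 98.5% and 98.1% of the rest. Among 8 obese cells with at least 1% dendritic marker UMIs, which should lack most of these genes although some dendritic cells carry Cd8a, 2 (25%, 3.19 to 65.1) had such a UMI at this depth and 6 (75%, 34.9 to 96.8) unthinned, at a median depth of 11940 UMIs. Both of the 2 such lean cells had one. In sum the 6 markers stood at 3600 against 5775 CPM in the lean and at 3445 against 5047 in the obese library. The coreceptor gene Cd8a had ratios of 0.23 and 0.15, Trac 0.07 and −0.16, Cd3e −0.45 and −0.41, Cd8b1 −0.87 and −0.50, and Ptprc, which encodes CD45, 0.84 and 0.58.

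Markers of other cell types were few. The Gm26917-high cells of the lean and obese library held 4 and 2 UMIs of 7 melanoma genes with Tyrp1 and Tyr at 0 in both, 17 and 21 of 8 myeloid genes, 20 and 63 of 6 B cell genes, 8 and 11 of 4 stromal and vessel genes, 4 and 1 of 2 CD4 genes, and 1 and 0 of 4 NK or gamma-delta genes. Neutrophil genes gave 0 UMIs in either, hemoglobin genes 0 and 2, and platelet genes 0 and 1. Dendritic genes gave 52 UMIs (77.4 CPM, 107 in the rest) in the lean library and 1046 (1630 CPM, 200 in the rest) in the obese library, with Siglech at 0 in both and Cd74 the most abundant. Of the obese UMIs, 989 (94.6%) came from 1 cell, the one with 36615 UMIs, and without it the level was 94.2 CPM.

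In the rest, mitosis genes were highest in the deepest cells, so that a comparison over all cells also compares depths. The 136 lean and 82 obese Gm26917-high cells with 2000 to 8000 UMIs were therefore also set against the 976 and 771 cells of the rest in that range, although their median depth remained lower (3034 and 3312 against 5944 and 5882 UMIs). Here 43.9% of 8626 lean and 41.5% of 8293 obese genes were at least 2-fold higher, 11.4% and 12.8% at least 2-fold lower, and the median gene stood at 0.81 and 0.73. In all, 6249 of the lean genes (72.4%) and 5760 of the obese genes (69.5%) were higher in the Gm26917-high cells of this range, against which the counts of lists below are to be read.

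In this range the cell cycle genes came to the fore. Summed over the 16 mitosis genes, the log2 ratio was 4.44 (4.30 to 4.58) in the lean and 4.02 (3.86 to 4.18) in the obese library. The medians were 4.32 and 3.41, whereas over all cells they were 0.59 and −0.26. All 16 listed genes were measured in the range. Of these, 13 lean and 12 obese genes reached 10 CPM only in the Gm26917-high cells, and thus had to be higher. The filter therefore largely sets these medians, and no count of higher genes is given. In shallower cells the difference was not seen throughout. Mitosis genes summed to 456 CPM against 809 in the rest of the lean library at 500 to 1000 UMIs, and to 260 against 89.0 at 1000 to 2000 UMIs. In the obese library they summed to 473 against 1216 and to 895 against 755 CPM. Of these 8 sums, 6 rest on under 30 UMIs each. Mki67, the proliferation marker Ki-67, stood at 680 against 16.7 CPM in the lean library (5.35, 5.01 to 5.70) and at 659 against 24.3 in the obese library (4.76, 4.42 to 5.11), and Top2a, the topoisomerase of dividing cells, had 4.19 and 3.98. The 67 replication histone genes, whose UMIs may be split among near-identical copies, summed to a ratio of 3.065 in the lean and 3.203 in the obese library. No count of them is given, since 38 of 58 measured (lean) and 34 of 56 (obese) reached 10 CPM only in the Gm26917-high cells. S phase genes such as the Mcm family had medians of 2.52 and 2.06 in this range, where 2 of 13 lean and 3 of 14 obese genes reached 10 CPM only in the Gm26917-high cells, but of 0.12 and −0.36 over all cells, and they were not above the rest under 2000 UMIs. At 1000 UMIs per cell, Mki67 was seen in 24.3% (17.3 to 32.4) of lean and 28.0% (18.7 to 39.1) of obese Gm26917-high cells in this range, against 1.5% and 2.2% of the rest in the range and 6.6% and 8.4% of the rest from 8000 UMIs. For a UMI of any of the 16 mitosis genes the gap to the deep cells was smaller, with 44.1% and 40.2% against 29.8% and 32.6% of the rest from 8000 UMIs. Unthinned, the Mki67 shares were 35.3% and 37.8% against 5.1% and 6.7% in the range. None of the 8 obese cells with dendritic markers had an Mki67 UMI at 1000 UMIs per cell (exact interval 0 to 36.9%, and 37.5% at the floor of 3 counts). Unthinned, at a median depth of 11940 UMIs, 0 of the 8 had one either. With 8 cells and 0 UMIs, the interval bounds only the share with a UMI and sets no limit on the share that express the gene.

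Groups of T cell state differed as well. Checkpoint genes were higher for 7 of 8 in both libraries, a share near that of all genes, with medians of 1.57 and 1.73 in the range and 1.11 and 0.84 over all cells. In each library 1 of the 8 reached 10 CPM only in the Gm26917-high cells, in both comparisons, and thus had to be higher. Lag3, an inhibitory receptor that binds MHC class II, stood at 900 against 162 CPM in the lean library (2.48, 2.31 to 2.64) and at 471 against 89.2 in the obese library (2.40, 2.11 to 2.68). Havcr2 (Tim-3) had 2.52 and 3.41, the exhaustion-associated transcription factor gene Tox 2.14 and 1.44, and Pdcd1 (PD-1) 1.17 and 1.42. All 9 naive and memory genes were lower in either library, with medians of −2.10 and −2.31, and over all cells the medians were −1.03 and −0.32 with 1 obese gene higher. In the range 2 lean genes and 1 obese gene reached 10 CPM only in the rest, and thus had to be lower. The same held for 2 lean genes over all cells. After thinning, a UMI of any of the 9 genes was seen in 33.1% (25.3 to 41.7) of lean Gm26917-high cells in the range. The share was 71.8% in the lean rest in the range, but 36.9% (34.2 to 39.7) in the lean rest from 8000 UMIs. The obese shares were 24.4% (15.6 to 35.1), 65.6% and 44.9% (42.1 to 47.6). The lean Gm26917-high cells were thus near the deep rest, and the obese ones below it. Among the 9 genes were, with their values in the range, the quiescence factor gene Klf2 (−2.44 and −2.31), Tcf7 (−2.25 and −1.87) and the interleukin-7 receptor gene Il7r (−2.20 and −3.19). Of 16 measured interferon-stimulated genes, of which 3 in the lean and 5 in the obese library reached 10 CPM only in the rest, 15 were lower in either library (medians −1.83 and −2.03, against −0.94 and −0.24 over all cells), with Isg15 at −2.97 and −2.74.

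Cytotoxic and effector genes had medians of −1.50 and −0.75 over all cells and −0.19 and −0.49 in the range. Over all cells 3 of 16 lean and 3 of 15 obese genes reached 10 CPM only in the rest, and thus had to be lower. In the range 6 of 14 lean and 6 of 13 obese genes were higher. There 2 lean genes and 1 obese gene reached 10 CPM only in the Gm26917-high cells. In each library 1 gene did so only in the rest, so the filter set these directions. Gzmb, the granzyme B gene, had −0.24 and −0.49 in the range and the chemokine gene Ccl5 −2.35 and −3.08. Over all cells of the obese library Ccl5 lay nearer the rest, at 4701 against 5365 CPM. The highest gene of the list over all cells was Tnf, with 2.04 and 1.86. Gzma gave 3 UMIs in either library, with ratios over all cells of −4.61 (−6.89 to −3.06) and −4.16 (−6.43 to −2.61). Ribosomal protein genes (−1.62 and −1.66), nuclear oxidative phosphorylation genes (−1.35 and −1.30) and mitochondrially encoded messages (0.84 and 0.88) kept in this range the directions they had over all cells. Heat shock genes stood at 0.23 and 0.25, immediate early genes at 0.02 and 0.29, and p53 and stress genes at 0.15 and 0.64. Over all cells p53 and stress genes had medians of 0.56 and 0.85. Their highest gene Atf4, a transcription factor of the integrated stress response, had 1.98 and 1.90, and of the p53 targets Mdm2 had 1.41 and 1.74 and Bax, the lowest gene of the list, −1.76 and −1.32. The plot of gene lists sets both comparisons side by side.

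**Figure D4:**
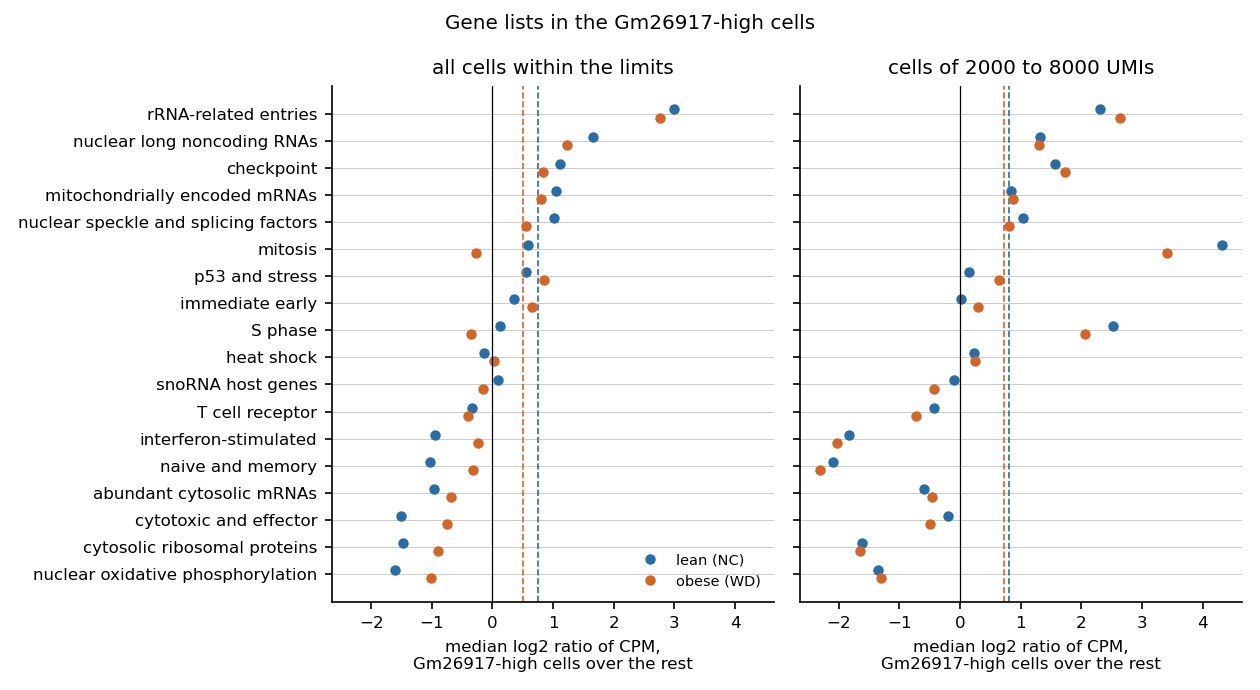
Median log2 ratio of CPM, Gm26917-high cells over the rest (x axis), of each gene list (y axis) in the lean (blue) and obese (orange) library, over all cells within the limits (left) and over cells of 2000 to 8000 UMIs (right); dashed lines are the medians of all genes. Replication histones are not drawn. The mitosis and S phase lists lie further to the right in the depth range, and the naive, interferon and ribosomal protein lists lie below 0 in both panels.

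Gm26917-high cells also lay near each other when Gm26917 was left out. Cells thinned to 1000 UMIs were placed by 20 principal components of 2000 genes, and the 20 nearest cells of each were taken from both libraries. Of these neighbours a median of 95% (lean) and 82.5% (obese) were Gm26917-high cells, which made up 7.12% of all cells placed. With Gm42418, AY036118, Lars2, Malat1, Rmrp and all mitochondrial genes removed too, the medians were 95% and 85%. In the rest the median was 0% each time. Of the Gm26917-high cells, 172 of 199 lean and 91 of 130 obese ones had most of their neighbours within the set in the first placement.

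A companion population lay outside the limits on cells. Of the cells with at least 7.5% mitochondrial UMIs, 109 of 158 in the lean library (69.0%, 61.2 to 76.1) and 163 of 213 in the obese library (76.5%, 70.3 to 82.0) also had at least 0.3% Gm26917. Among cells with 50000 or more UMIs, 0 of 83 and 0 of 121 did. Over all cells, without limits, 326 of 2697 lean and 298 of 2623 obese ones had at least 0.3% Gm26917. The libraries thus lay closer in this share than within the limits, where it was 8.84% and 5.90%.

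Between diets, the Gm26917-high cells differed by group, and for several groups the difference was near 0 or turned in cells of 2000 to 8000 UMIs, a range that leaves out both the shallowest and the deepest cells. The median gene had a log2 ratio of obese over lean of −0.085, with 3827 of 8665 genes higher, and in the range of −0.015, with 4236 of 8694 higher. Over all cells 5.8% were at least 2-fold higher and 7.32% at least 2-fold lower in the obese library. Ribosomal protein genes were higher in the obese cells for 76 of 81 genes (median 0.57), but in cells of 2000 to 8000 UMIs for 22 of 81 (−0.12). Nuclear oxidative phosphorylation genes went from 0.52 to −0.01, naive and memory genes from 0.59 to −0.18, interferon-stimulated genes from 0.55 to −0.02 and mitosis genes from −0.33 to −0.02 in the same step. In the rest, ribosomal protein genes stood at −0.04 over all cells.

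Immediate early genes, which are transcribed within minutes of stimulation or stress, were higher in the obese Gm26917-high cells for 14 of 15 genes both over all cells (median 0.58) and in the range (0.64). In the rest the medians were 0.53 and 0.37, so this direction was also seen there. Heat shock genes were higher for 10 of 10 (0.65) over all cells and 8 of 9 (0.26) in the range. Over all cells 1 of the 10 had 0 lean UMIs and thus had to be higher. In the rest, heat shock genes were higher for 8 of 10 (0.14) and 7 of 10 (0.13). Genes of the p53 and stress list were higher for 9 of 12 (0.35) and 9 of 11 (0.56), and in the rest for 9 of 11 (0.27) and 8 of 11 (0.17). Junb, an AP-1 subunit, had 1.21 and 0.93 in the Gm26917-high cells and Fos 0.92 and 0.34. Checkpoint genes had a median of −0.44 (1 of 8 higher) over all cells and −0.19 (2 of 8 higher) in the range, against −0.49 and −0.59 in the rest. Lag3 was the lowest of them, with 221 against 571 UMIs and a log2 ratio of −1.30 (−1.53 to −1.08), −0.93 in the range and −0.85 in the rest. Malat1 had −0.39 (−0.42 to −0.36) and −0.11 in the range, Gm42418 −0.63 and −0.20. Rmrp had 0.03 (−0.27 to 0.33) over all cells and 0.46 (0.11 to 0.81) in the range. Whether any of these differences exceeds that between mice of 1 diet could not be tested.

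Among the 10 genes at the ends of the ranking between diets (5 at each), several signals came from single cells. Cd74, the invariant chain of MHC class II, had 4.20, with 546 of 597 obese UMIs in 1 cell, and −0.32 in the range, which that cell is outside of. The chemokine gene Xcl1 had 2.90, with 196 of 363 obese UMIs in 1 cell, and 0.34 in the range. Chpt1, an enzyme of phosphatidylcholine synthesis, had −1.68, with 55 of 77 lean UMIs in 1 cell, and 0.24 in the range. Snrpd3, a core protein of spliceosomal particles, had 1.98 (1.40 to 2.60) and 1.90 in the range, and Coq10b, a coenzyme Q binding protein gene, 1.61 and 1.51. Nop10, part of the H/ACA particles that modify ribosomal RNA, had 1.63 and 0.22. Gm36723, Filip1, Adgrg5 and Xdh lay between −1.48 and −1.39, and between −0.86 and −0.66 in the range. Over all cells of the rest, Gm36723 had −1.44, Filip1 −0.85, Adgrg5 −0.60, Xdh −0.37 and Chpt1 −0.64. Coq10b had 0.81 there, Cd74 0.62, Xcl1 0.13, Snrpd3 0.12 and Nop10 0.08. These directions were thus also seen in the rest, mostly with smaller ratios.

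**Figure D5:**
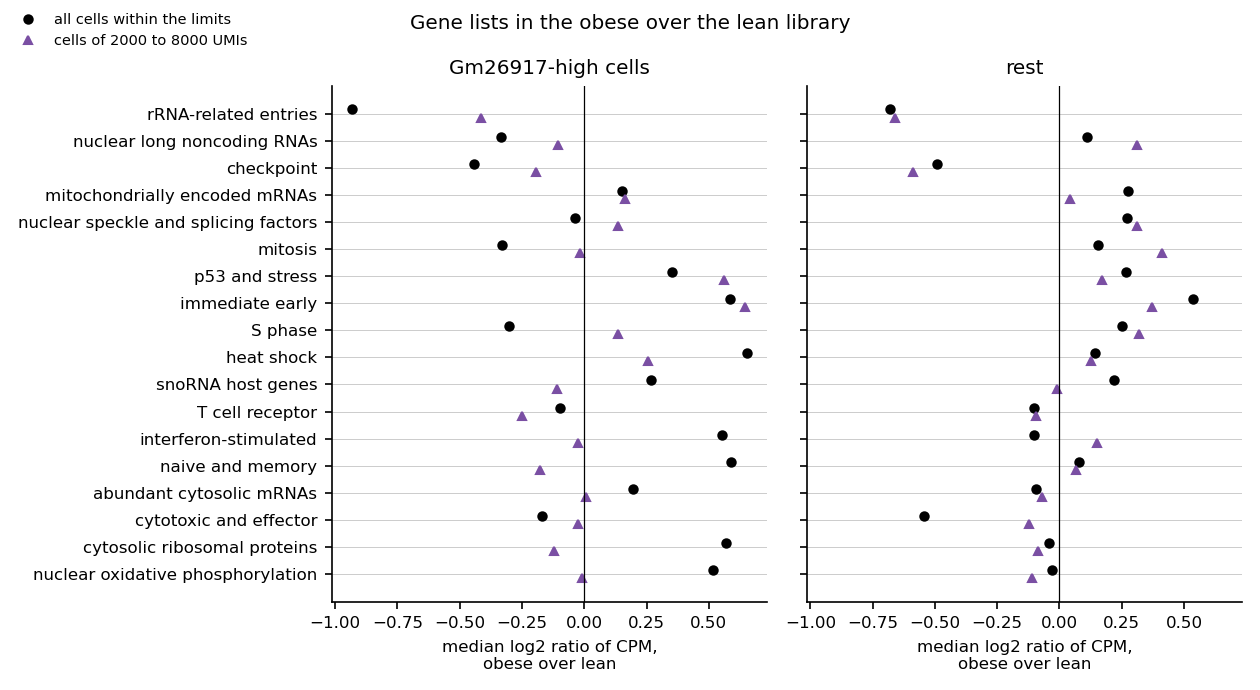
Median log2 ratio of CPM, obese over lean (x axis), of each gene list (y axis) in the Gm26917-high cells (left) and in the rest (right), over all cells within the limits (black circles) and over cells of 2000 to 8000 UMIs (purple triangles). In the Gm26917-high cells the ribosomal protein, oxidative phosphorylation, naive and interferon lists move from above 0.5 to near 0 or below in the depth range, while immediate early genes stay above 0.5.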

How the data were processed

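RNA of CD8+ TIL was measured in 2 libraries, lean and obese. The authors deposited raw UMI counts per gene and cell for each library, not normalized, over 32285 features. Cell Ranger 6.0.2 and mm10 are named in the submitters' processing notes. The files hold 5320 cells, the number the study gives after its filters, of which 4745 meet its stated limits (under 7.5% mitochondrial UMIs, over 500 and under 50000 UMIs). These limits were applied here. The rest held 27143631 lean and 28054332 obese UMIs. Doublets were not removed. Not every gene of a list is given its own value here. The members and gene lists were chosen with earlier results of these data known.

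UMIs were summed over cells and scaled to CPM with Python 3.11.15 (numpy 2.4.6, scipy 1.17.1, pandas 2.3.3, scikit-learn 1.9.0). CPM values carry exact Poisson intervals, log2 ratios exact conditional binomial intervals and shares of cells Clopper-Pearson intervals, all at 95% and for counting error only. A list's median covers members with at least 10 CPM in either set of cells. Where 1 set had 0 UMIs, 3 counts were used as the floor. The named genes are those of the lists, the 10 highest and 10 lowest of the ranked genes for the Gm26917-high cells over the rest, and the 5 highest and 5 lowest for obese over lean. On simulated counts of the lean cells over the rest, 200 of 6832 genes were changed by a log2 ratio of 1. Of these, 99.5% were placed in the right direction and 96.5% of intervals covered the set value. The counts were drawn as Poisson counts for each gene, so this coverage followed from the way they were drawn. UMIs of some genes lay mostly in 1 cell, and the simulation did not cover that case. Positions are from GENCODE on GRCm38, and Rn18s-rs5 is from RefSeq; exonic lengths were found for 99.95% of the genes measured. Alternatives were a Gm26917 threshold of 0.5%, at least 3 Gm26917 UMIs, thinning to 1000 UMIs, stricter limits on cells, all deposited cells, totals that left out mitochondrial and ribosomal protein genes, the rest weighted by depth and a mean over cells. The range of 2000 to 8000 UMIs and leaving out the cell with most dendritic UMIs were added after the data were seen.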

Additional observations from a re-analysis of the deposited data

Results flagged for a closer look

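For 4 named genes with at least 20 UMIs in the Gm26917-high cells of each library, the log2 ratio of these cells over the rest had opposite signs in the libraries with both intervals away from 0, and in no case was the difference between libraries tested. Xcl1 stood at −2.59 in the lean and 0.17 in the obese library, where 1 cell held 196 of 363 UMIs. Without that cell the obese level was 269 CPM against 502 in the rest, so that the sign was that of the lean library. Cd74 stood at −0.52 and 3.05, with 546 of 597 obese UMIs in 1 cell, and without that cell its level was 84.3 CPM against 112 in the rest, again with the sign of the lean library. Junb stood at −0.21 and 0.18, and the ribosomal protein gene Rpsa at −0.046 and 0.16. In the cells at or over the mitochondrial limit, which the limits on cells leave out, 69.0% of lean and 76.5% of obese cells had at least 0.3% Gm26917, against 8.84% and 5.90% of the cells within the limits.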

How the results depend on the processing

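No paired analysis was possible because each diet had 1 library. Of 65 alternative values for 8 results, 23 stayed within their interval or spread, 41 moved and 1 changed sign. The mitochondrial, ribosomal protein and immediate early results are medians over genes, but their intervals took the width of the ratio of summed UMIs. For these results, staying or moving is therefore only a rough label. As reported, the share was 7.42% and the log2 ratios, given as the mean of both libraries for Gm26917-high cells over the rest, were 1.15 for Malat1, 5.35 for Rmrp, 0.92 for mitochondrial messages and −1.19 for ribosomal protein genes. Between diets they were −0.39 for Malat1 and 0.58 for immediate early genes. With a threshold of 0.5% the share was 6.17%, Malat1 1.22, ribosomal proteins −1.32 and Malat1 between diets −0.29. Thinning to 1000 UMIs gave Malat1 0.94, mitochondrial 0.80, ribosomal −1.39, and between diets −0.24 and 0.68. Stricter limits on cells gave a share of 4.77%, Malat1 1.12, mitochondrial 0.53, ribosomal −1.06, and between diets −0.44 and 0.85. All deposited cells gave 11.7%, 1.30, 1.77, −1.39 and, for immediate early genes, 0.52. Totals that left out mitochondrial and ribosomal protein genes gave Malat1 0.86, Rmrp 5.05, and between diets −0.29 and 0.69. Weighting the rest by depth turned Malat1 to −0.037 and gave Rmrp 4.05, mitochondrial 0.72 and ribosomal −0.96. A mean over cells gave Malat1 0.93, mitochondrial 0.84, ribosomal −1.66, and between diets −0.27 and 0.76. Cells of 2000 to 8000 UMIs gave Malat1 0.27, mitochondrial 0.86, ribosomal −1.64, and between diets −0.11 and 0.64. Without the obese cell with most dendritic UMIs, Malat1 was 1.19, mitochondrial 0.94, ribosomal −1.23 and Malat1 between diets −0.32. Beyond what each alternative's own construction shows, the cause was not tested. The 1 library per diet and, for low genes, the few UMIs of the set limit precision.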
